A study of Mus musculus with 2 samples.

Results

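The miR-130 and miR-301 family of the mouse is made up here of the miRNA genes Mir130a, Mir130b, Mir301 (the gene of miR-301a) and Mir301b. Members were taken by gene symbol, as the rows of the count tables whose Ensembl identifier carries a member's GENCODE symbol, and the rule itself uses no measured value. All 4 members were found among 1973 miRNA gene rows. The samples were adrenal glands of newborn B6NCrl mice (age 0 days), a single group with no treatment in the labels, with pup 2 and pup 1 of one pregnancy each giving 1 small RNA library from both of its glands. Their sex was not collected. Their descriptions tell the pups apart, while a shared donor identifier does not, so the spread over n = 2 may be technical. The series holds no other tissue, age or treatment, and the libraries were limited to RNA below 30 nucleotides, the size of mature miRNAs.

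MicroRNAs are short RNAs cut from hairpin precursors, and they repress messenger RNAs that pair with their seed, bases 2 to 8 counted from the 5′ end. Members of a family share a seed and so can bind the same sites. The miR-130 and miR-301 family is conserved among vertebrates. In human endothelial cells miR-130a is known to repress the homeobox genes GAX and HOXA5, and miR-130 is known to restrain fat cell differentiation through PPARG. The adrenal gland, with its steroid-producing cortex and its medulla of chromaffin cells, is densely supplied with capillaries.

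The mature sequences show what joins the members and what separates them. All 4 genes had a hairpin in RefSeq (GRCm38.p6), and 7 mature sequences were listed, 3 from the 3p arm and 4 from the 5p arm. The 3p arm of Mir301b gives miR-301b-3p. The 3p sequences carry the family seed, in capitals.
miR-130a-3p: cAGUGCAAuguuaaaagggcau
miR-130b-3p: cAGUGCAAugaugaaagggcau
miR-301a-3p: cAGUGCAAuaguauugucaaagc

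Counted from the 5′ end of miR-130a-3p, miR-130b-3p differs from it by U11A and A13G, so 20 of 22 bases are the same. miR-301a-3p follows miR-130a-3p for its first 9 bases only and is the same at 12 of 22 positions. The hairpin of Mir301b is shown because it holds the same seed once, at bases 56 to 62, again in capitals.
Mir301b hairpin: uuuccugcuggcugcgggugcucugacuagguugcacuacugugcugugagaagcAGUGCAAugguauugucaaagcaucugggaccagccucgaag

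The closest stretch of that hairpin to miR-301a-3p differs by a single base, A10G, counted from the 5′ end of miR-301a-3p. It was the only one of 1004 other hairpins within 1 mismatch of miR-301a-3p. The 5p arms carry other seeds, shown in capitals.
miR-130a-5p: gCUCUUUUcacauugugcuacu
miR-130b-5p: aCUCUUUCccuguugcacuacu
miR-301a-5p: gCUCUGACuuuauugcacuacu
miR-301b-5p: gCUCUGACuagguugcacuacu

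Both miR-301 5p sequences have the seed CUCUGAC and are the same at 19 of 22 positions. miR-130b-5p matches both of them at 16 of 22 positions and miR-130a-5p at 15. The deposited counts are per gene, so reads of the 3p and 5p arms could not be told apart.

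The members lie at 3 places in the genome (mm10, 1-based). Mir130a (ENSMUSG00000065484.1) is at chr2:84741115-84741178 on the minus strand, with no other annotated gene overlapping it. Mir301 (ENSMUSG00000065589.1) is at chr11:87113004-87113089 on the plus strand, within an intron of Ska2, whose protein takes part in chromosome segregation. Mir130b (ENSMUSG00000065572.1, chr16:17124061-17124142) and Mir301b (ENSMUSG00000076288.1, chr16:17124400-17124496) lie on the minus strand in an intron of the protein-coding gene 2610318N02Rik, with 257 bases between them. Host transcripts were not measured in these libraries.

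The libraries differed 2.94-fold in depth. Same-strand counts over all miRNA genes came to 3327743 in pup 2 and 1131762 in pup 1. Levels are given as CPM, counts per 1000000 of these totals. The listed mature sequences of the members are 22 or 23 bases long, so their levels were compared without scaling by length. With a floor of 3 counts, a gene at 0 may have had as much as 0.902 CPM in the library of pup 2, and 2.65 CPM in that of pup 1. Multi-mapped reads, 32.2% of reads in pup 2 and 34.9% in pup 1, are not in any gene's count. Of the marker lists, neuroendocrine miRNAs (Mir375, Mir7-1, Mir7-2 and Mir7b) had a sum of 33410 CPM in pup 2 and of 39765 CPM in pup 1. The endothelial Mir126a alone reached 102288 CPM in pup 2 and, in pup 1, 81621 CPM. The hepatocyte miRNA Mir122 stood at 4081 CPM in pup 2, against 2979 CPM in pup 1. The leukocyte (3 of 4 listed genes measured), erythroid (3 of 3), kidney (4 of 4) and pancreas (3 of 3) lists had sums of 2.10 to 1023 CPM in pup 2, against 0.884 to 866 CPM in pup 1. Striated muscle miRNAs (5 of 6) summed to 412 CPM in pup 2, against 82.2 CPM in pup 1, nearly all from Mir206. Mir1a-1, Mir133a-1 and Mir133a-2 were at 0 counts in both. Any listed gene whose mature sequence is encoded at several loci loses its multi-mapped reads. A count of 0 therefore need not mean absence, and the sums of the lists may be understated. No miRNA specific to adrenal cells was on the lists.

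The family was led by Mir130a in both pups and took 1.54% of all counts in pup 2 and 1.40% in pup 1, a mean of 1.47% ± 0.0951 (SD, n = 2). By counting error alone the shares lie between 1.52 and 1.55% in pup 2 and between 1.38 and 1.42% in pup 1 (exact Clopper-Pearson 95% intervals). The counts are of reads, which after amplification need not be separate molecules, so each interval or floor given here covers counting error only. All 4 members had a mean of 10 CPM or more, a level reached by 284 of the 1973 genes.

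Mir130a, the member best known from blood vessels, had 43458 counts in pup 2 and 13328 in pup 1. Its level was 13059 CPM in the glands of pup 2 and 11776 CPM in those of pup 1, a mean of 12418 ± 907 CPM (SD, n = 2). It ranked 21st of all miRNA genes in pup 2 and 23rd in pup 1, among the 25 genes whose mean reached 10000 CPM.

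Mir130b, the nearest in 3p sequence to Mir130a, had 5128 counts (1541 CPM) in pup 2 and 1824 counts (1612 CPM) in pup 1. Its mean of 1576 ± 49.97 CPM placed it 65th. It had the smallest relative spread of the family, a coefficient of variation of 3.17%.

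Mir301, the Ska2 intron gene that gives miR-301a, had 2408 counts (724 CPM) in pup 2 and 666 counts (588 CPM) in pup 1. The mean was 656 ± 95.6 CPM, the 96th level. Its coefficient of variation of 14.6% was the largest of the 4.

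Mir301b was the least abundant, with 110 counts (33.1 CPM) in pup 2 and 41 counts (36.2 CPM) in pup 1. The counting intervals ran from 27.2 to 39.8 CPM in pup 2 and, in pup 1, from 26.0 to 49.1 CPM. Its mean of 34.6 ± 2.24 CPM was the 235th level. Both values lay above the floor of 3 counts.

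**Figure D1:**
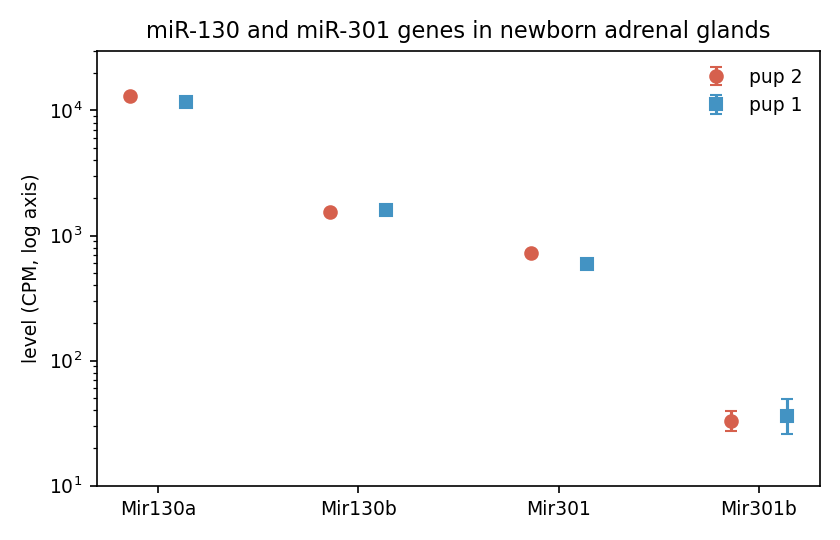
Level of each member in pup 2 (circles) and pup 1 (squares), in CPM on a log axis, with exact 95% counting intervals (hidden by the symbols where narrow). The members keep the same order in both pups, from Mir130a (13059 CPM in pup 2, 11776 CPM in pup 1) down to Mir301b (33.1 CPM in pup 2, 36.2 CPM in pup 1).

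**Figure D2:**
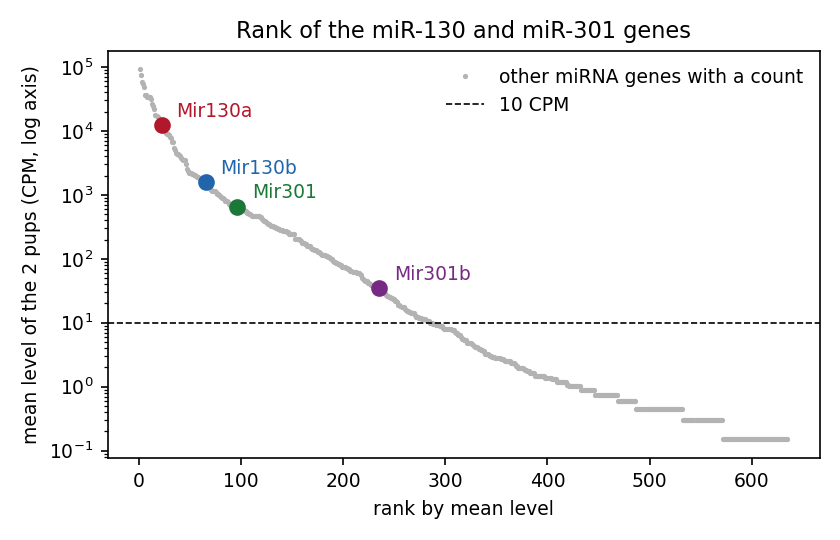
Mean level over the 2 pups (CPM, log axis) against rank for all miRNA genes with a count (grey), with the members in colour and a dashed line at 10 CPM. Mir130a sits at rank 22 and Mir301b at rank 235.

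The order from Mir130a to Mir130b, Mir301 and Mir301b was the same in both pups, and no neighbours in it had overlapping values over the pups. Mir130a was 8.47-fold above Mir130b in pup 2 (95% counting interval 8.23 to 8.73) and 7.31-fold in pup 1 (6.96 to 7.68). Mir130b exceeded Mir301 by 2.13-fold in pup 2 (2.03 to 2.24) and 2.74-fold in pup 1 (2.50 to 2.997), the closest step of the order. For both of these steps the counting intervals of pup 2 and pup 1, which cover counting error only, do not overlap. How often this holds for other pairs of genes was not counted. Mir301 exceeded Mir301b by 21.9-fold in pup 2 (18.1 to 26.7) and 16.2-fold in pup 1 (11.8 to 22.8). From end to end, Mir130a was 395-fold above Mir301b in pup 2 (328 to 481) and 325-fold in pup 1 (239 to 453). The efficiency with which each sequence was captured in the libraries was not measured, so folds between genes hold for the counted reads.

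As shares of the family, Mir130a gave 85.0% of the counts in pup 2 (84.7 to 85.3) and 84.0% in pup 1 (83.5 to 84.6). Mir130b gave 10.03% in pup 2 (9.78 to 10.3) and 11.5% in pup 1 (11.0 to 12.0). The Mir130b share was thus the lower in pup 2. Mir301 gave 4.71% in pup 2 (4.53 to 4.90) and 4.20% in pup 1 (3.89 to 4.52). Mir301b made up the remainder, 0.215% in pup 2 (0.177 to 0.259) and 0.259% in pup 1 (0.186 to 0.351). The counting intervals of pup 2 and pup 1 overlap for Mir301b, which had the fewest counts, and not for the other members. These intervals cover counting error only, and the shares are parts of one sum, so they do not vary independently. How often such intervals stay apart over all genes was not counted.

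**Figure D3:**
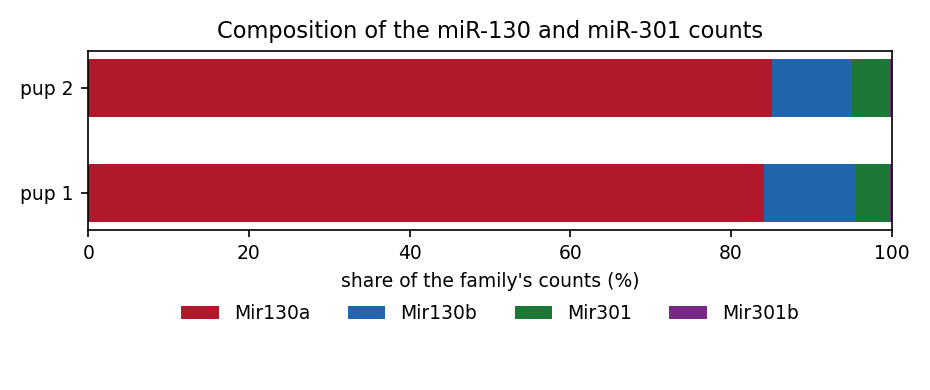
Share of the family's same-strand counts from each member (stacked bars, %, from 0 to 100) in pup 2 (top) and pup 1 (bottom). Mir130a holds 85.0% in pup 2 and 84.0% in pup 1, and Mir301b is a thin line at the right end, with 0.215% in pup 2 and 0.259% in pup 1.

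The neighbours Mir130b and Mir301b had very unequal levels. Mir130b was 46.6-fold above Mir301b in pup 2 (38.6 to 56.8) and 44.5-fold in pup 1 (32.7 to 62.2), and these intervals overlap. For comparison, 82 pairs of neighbouring miRNA genes transcribed in the same direction, at most 10 kb apart and each averaging at least 10 CPM, were found in the tables. The absolute log2 difference between the mean levels of such a pair had a median of 2.44 and quartiles of 1.23 and 4.61. For Mir130b and Mir301b it was 5.51, and 13 other pairs were at least as far apart, among them Mir23a with Mir27a and Mir503 with Mir322. Pairs with a gene below 10 CPM were left out, so wider gaps may be missing from the comparison. Some genes, such as Mir541, are in more than 1 of the pairs. Levels of several of these pairs leave out multi-mapped reads, since a mature sequence encoded at more than one locus loses such reads. The stretch of the Mir301b hairpin that lies 1 base from miR-301a-3p is a possible place for reads to be exchanged, and Mir301b had 4.57 counts per 100 counts of Mir301 in pup 2 and 6.16 in pup 1. The part of such exchange in the level of Mir301b was not tested.

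**Figure D4:**
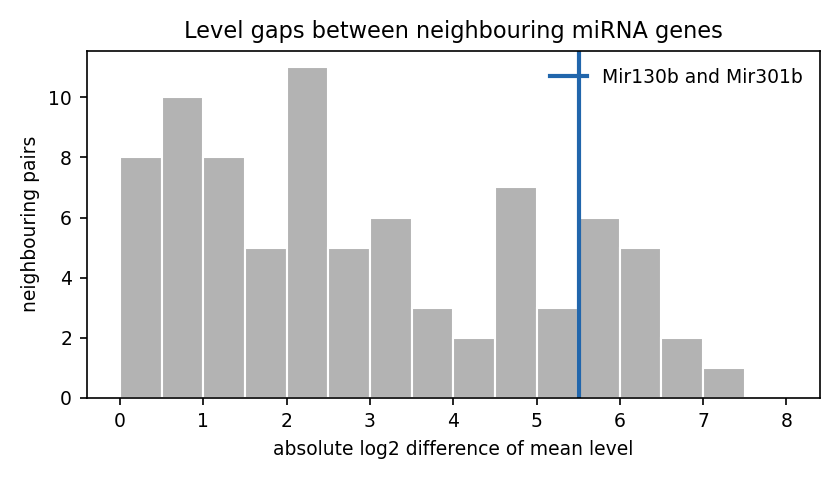
Histogram of the absolute log2 difference in mean level (x axis) over the 82 pairs of neighbouring miRNA genes (y axis, number of pairs), with a line at the pair Mir130b and Mir301b. The line stands at 5.51, above the upper quartile of 4.61.

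Between the pups, no member was 2-fold apart. Of the 284 genes that averaged at least 10 CPM, 15 (5.28%) differed at least 2-fold, with 10 (3.52%) higher in pup 2 and 5 (1.76%) lower, on a log2 scale with 1 CPM added. With 1 library per pup there is no replicate check and no p-value. Mir130a was 1.11-fold higher in pup 2 (1.09 to 1.13) and Mir301 was 1.23-fold higher (1.13 to 1.34). For both, the counting interval lay above 1. Such an interval covers counting error only, and how many of the 284 genes have one that leaves out 1 was not counted. Mir130b had a ratio of 0.956 in pup 2 over pup 1 (0.906 to 1.01) and Mir301b one of 0.912 (0.632 to 1.34), and both intervals include 1.

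On the log2 scale the ratios of pup 2 over pup 1 were 0.15 for Mir130a, -0.065 for Mir130b, 0.30 for Mir301 and -0.13 for Mir301b, with a median of 0.042. Over all 284 genes the median was 0.078, with quartiles of -0.22 and 0.36, and the middle of the absolute log2 ratios was 0.31. All 4 members lay between the quartiles of all genes. Of the 284 genes, 134 had a smaller absolute log2 ratio than Mir301, the member farthest from 0, and 33 a smaller one than Mir130b, the member nearest to it. TMM scaling moved log2 ratios up by 0.11 before the added 1 CPM, which left Mir301b at -0.026 and Mir130b at 0.041, the other direction. With all reads in the tables as library size, Mir130b was at 0.00092. The summed family had a ratio of 1.10 (1.08 to 1.12). The 7 measured of 8 listed endothelial miRNAs had a summed level of 140844 CPM in pup 2 and 120873 CPM in pup 1, a difference carried by Mir126a. The other 6 summed to 38557 CPM in pup 2, against 39252 CPM in pup 1. Most of that sum was Mir23a, at 36584 CPM in pup 2 and 37455 CPM in pup 1. Only Mir126a of the endothelial list was also on a list of cell type markers. Of the 7 endothelial genes, 5 were higher in pup 2 and 2 lower, while 165 of all 284 genes were higher. All 7 were higher with TMM scaling or with all reads as library size. These scalings move the log2 ratios of all genes up, by 0.11 and 0.066 before the added 1 CPM. None of the 7 was 2-fold apart. The part of endothelial cells in the difference of Mir130a was not tested. In whole glands more cells of a type and more RNA per cell cannot be told apart.

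**Figure D5:**
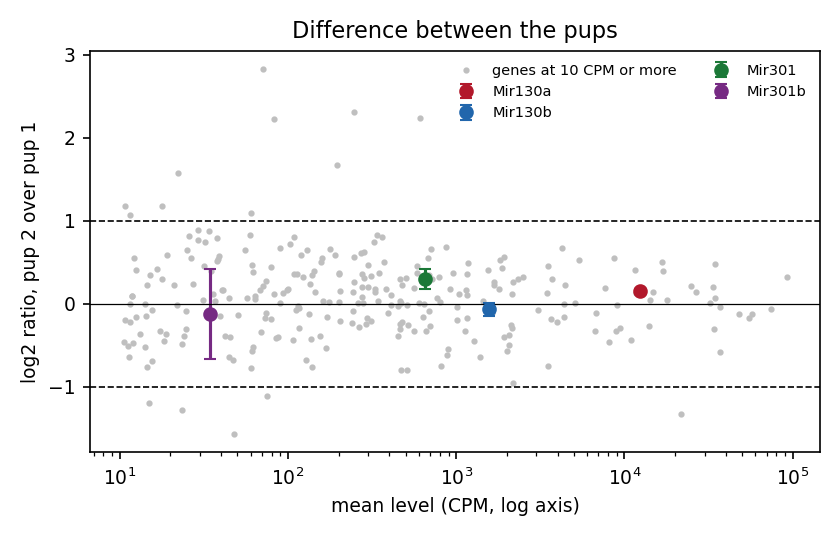
Log2 ratio of pup 2 over pup 1 (y axis, 1 CPM added) against mean level (x axis, CPM, log axis) for 284 genes (grey) and the members (colour, with exact 95% counting intervals), with dashed lines at 2-fold. The members lie between -0.13 and 0.30, inside the dashed lines.

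Outside the family, few mouse miRNAs carry the seed. Of 1679 mature names in the RefSeq table, 7 (0.417%) had AGUGCAA at bases 2 to 8, the 3 listed 3p sequences of the family among them. The others are shown because they could bind the same sites.
miR-130c: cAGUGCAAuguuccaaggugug
miR-721: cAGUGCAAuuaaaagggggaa
miR-6341: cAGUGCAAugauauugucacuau
miR-6389: cAGUGCAAuguuaaacuuugc

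Mir130c, Mir6341 and Mir6389 were in the count tables, each with 0 counts in either library, so their levels were at most 0.902 CPM (pup 2) and 2.65 CPM (pup 1) by the 3-count floor. Mir721 was not analysed here. The 4 family members therefore gave all counts of the measured genes with this seed, 51104 in pup 2 and 15859 in pup 1.

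Seeds that overlap the family's by a shift of 1 base are found in the miR-148 and miR-152 family and in miR-19, shown with their own seeds in capitals.
miR-148a-3p: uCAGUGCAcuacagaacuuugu
miR-148b-3p: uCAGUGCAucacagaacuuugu
miR-152-3p: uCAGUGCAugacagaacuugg
miR-19a-3p: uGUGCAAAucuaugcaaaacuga
miR-19b-3p: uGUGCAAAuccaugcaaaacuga

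The 3 miR-148 and miR-152 genes summed to 1033 CPM in pup 2, against 786 CPM in pup 1, while the miR-130 and miR-301 family reached 15357 CPM in pup 2, against 14013 CPM in pup 1. Mir148a led them at 588 ± 105 CPM, near the level of Mir301, followed by Mir152 at 202 ± 35.5 CPM and Mir148b at 120 ± 34.5 CPM. All 3 were higher in pup 2, by log2 ratios of 0.37, 0.36 and 0.59, and none was 2-fold apart. Of all 284 genes averaging at least 10 CPM, 165 were likewise higher in pup 2. The miR-19 genes had low counts, with Mir19a at 11.5 ± 0.0476 CPM, Mir19b-1 at 15 counts in pup 2 and 7 in pup 1, and Mir19b-2 at 4 counts in pup 2 and 0 in pup 1. The mature miR-19b-3p is the same at both of its loci, so its multi-mapped reads are missing from these counts. The miR-17-92 cluster, known for promoting proliferation, holds Mir19a and Mir19b-1 but not Mir19b-2. Its 3 most abundant genes were Mir17 at 3480.1 ± 223 CPM, Mir92-1 at 1014 ± 17.2 CPM and Mir20a at 952 ± 174 CPM. Any multi-mapped reads are missing from these levels too, so the levels and their order may be affected. Of the endothelial list, Mir126a had a mean of 91954 CPM and Mir23a one of 37020 CPM, both above Mir130a, followed by Mir92-1.

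The genes nearest in level to each member were found as those with the smallest distance in log2(CPM + 1) over the 2 libraries, which describes levels only. For Mir130a they were Mir487b (distance 0.11), Mir30e (0.24) and Mir127 (0.30), of which Mir487b and Mir127 belong to the imprinted Dlk1-Dio3 locus. For Mir130b they were Mir324 (0.066), Mir93 (0.19) and Mir425 (0.23). For Mir301 they were Mir300 (0.052), Mir18 (0.063) and Mir29a (0.095), and for Mir301b Gm23935 (0.17), Mir3074-1 (0.19) and Mir29b-1 (0.23). With 2 libraries, a small distance says little beyond a like mean level.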

How the data were processed

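Small RNA of 2 newborn mouse adrenal libraries (RNA below 30 nucleotides, per the labels) was analysed. The deposited tables, 1 per library, hold raw counts of reads at each miRNA gene, in columns for either strand, the same strand and the opposite strand. Per the notes deposited with the files, reads were placed on mm10 with GENCODE M4. Which aligner and trimming the authors used is not given in the sources used here. Rows for multi-mapped, unmapped and no-feature reads (32.2%, 11.2% and 3.86% in pup 2 and 34.9%, 10.6% and 4.03% in pup 1) stayed out of library sizes.

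Here, CPM (scale 1000000) was computed from the deposited same-strand counts over all gene rows with Python 3.11.15 and numpy 2.4.6. Symbols and positions came from GENCODE M21, on the same assembly, which named 1894 of 1973 identifiers, and sequences from RefSeq GRCm38.p6. Log2 ratios have 1 CPM added, and folds without a log are plain ratios with an exact conditional binomial 95% interval (scipy 1.17.1). Ratios between the pups were read against genes averaging at least 10 CPM. No test was run, as there is a single group with 1 library per pup. The script was tested on simulated data with known changes. TMM (edgeR 4.0.16) and DESeq2 1.42.0 gave alternative library sizes only.

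All members were named, as were measured genes with the same or a shifted seed, the 3 most abundant of each other list, and the 3 genes nearest in level to each member. Members, lists and rules were chosen with earlier results of these data known. Mir503, Mir322 and Mir27a, and the marker genes beyond the 3 per list, were named after their values were seen.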

Additional observations from a re-analysis of the deposited data

Results flagged for a closer look

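Mir130a had 4 counts on the strand opposite to the gene in pup 2 and 0 in pup 1. The opposite-strand column entered none of the levels above, and 4 counts are more than the 3 that a count of 0 allows. They were 0.00920% of the reads at Mir130a in pup 2. Mir130b, Mir301 and Mir301b had 0 opposite-strand counts in both pups. Over all miRNA genes that column held 104740 counts in pup 2 and 39345 in pup 1. These were 3.05% (pup 2) and 3.36% (pup 1) of same-strand and opposite-strand counts together, so the share at Mir130a was far below that of all genes pooled. A few genes can carry a pooled share, and how the share varies over single genes was not examined. A group of 2 is too small for a check of outlying samples.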

How the results depend on the processing

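The order Mir130a, Mir130b, Mir301, Mir301b was the same under the 6 other scalings, columns and filters tried, which could not have changed it. A change of library size divides all members of a pup alike. The unstranded column added only 4 counts, at Mir130a in pup 2. With all reads in the table as library size, mean levels were 7579 CPM for the family, 6410 for Mir130a, 812 for Mir130b, 339 for Mir301 and 17.8 for Mir301b. Without the 10 most abundant genes in the library size they were 29555, 24991, 3174, 1320 and 69.8 CPM in the same order. Both changes follow from the divisor. The unstranded column gave 1526 CPM for Mir130b. The log2 ratio of pup 2 over pup 1 for the family was 0.24 with TMM, 0.16 with DESeq2 size factors and 0.20 with all reads, against 0.13, and for Mir130a 0.25, 0.18 and 0.21, against 0.15. Mir130b was at 0.041 with TMM, against -0.065. All settings kept each member within 2-fold, the farthest log2 ratio being 0.40 for Mir301 with TMM. The number of genes 2-fold apart was 63 of 432 (14.6%) at a minimum mean of 1 CPM and 4 of 188 (2.13%) at 100 CPM, against 15 of 284 (5.28%) at 10 CPM. A prior of 5 CPM gave 11.

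Leaving out either pup gives the other's value: the family lay between 14013 and 15357 CPM, and shares of Mir130a between 84.0 and 85.0%. No paired analysis was possible because the series holds a single group. Depth limits Mir301b most, with 41 counts in pup 1.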
